A study of Mus musculus with 17 samples.

Results

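The difference between CD11c+ and CD11c- microglia was compared between the developing brain and the inflamed adult brain, to ask which genes separated the subsets in both settings, in 1 of them, or in opposite directions. It rests on the 14 of 17 RNA sequencing libraries whose population label names a CD11c subset in neonates or in experimental autoimmune encephalomyelitis (EAE, an inflammatory disease of the central nervous system raised by immunization against myelin): in neonates 4 with and 4 without CD11c, and in EAE 3 with and 3 without it. All mice were C57BL/6. Neonatal cells came from pups of both sexes in the first postnatal week and received no treatment, while EAE cells came from young adult females with symptoms, immunized with a peptide of myelin oligodendrocyte glycoprotein in adjuvant with mycobacteria and given pertussis toxin. Each library was made from cells pooled from several mice and sorted as CD11b+ CD45dim cells with or without surface CD11c, so age, disease, sex and adjuvant changed together between the conditions and cannot be told apart. The remaining 3 libraries, of microglia from untreated adult mice, did not enter the main fit and serve as a reference for levels. Their population label reads CD11C negative whereas their titles read total microglia, so whether they were sorted by CD11c is uncertain.

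CD11c is the integrin alpha X subunit, encoded by Itgax, and pairs with CD18 as a complement receptor. Microglia that carry it are sparse in the healthy adult brain, are frequent around developing white matter after birth, and accumulate in demyelinating disease. They are known for a program of lipid, lysosomal and matrix genes, including the growth factor gene Igf1 and the secreted phosphoprotein gene Spp1 (osteopontin).

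Counted reads per library ranged from 5115489 to 10436066. Of 24 marker genes of homeostatic microglia none was at 0 in any of the 4 groups, and their summed level was 36230 to 53316 CPM (counts scaled to the library total) across the 14 libraries. Of 16 neutrophil markers, which a CD11b+ gate does not remove by itself while CD45dim sorting is meant to leave out CD45high blood leukocytes, the summed level was 446.6 to 477.0 CPM in neonatal CD11c+, 680.8 to 2291 in neonatal CD11c-, 900.1 to 1336 in EAE CD11c+ and 8343 to 14967 in EAE CD11c- libraries, with none of the markers at 0 in any group. Csf3r, a member of that list, is also expressed by microglia. Library 17 (neonatal CD11c-) held 5.10% and library 1 (EAE CD11c+) 2.23% mitochondrial counts against 0.822% to 1.56% in the other 12, library 19 had the highest neutrophil sum of its group, and library 16 had an immediate early gene sum of 28973 CPM against 2909 to 3540 in the other neonatal CD11c+ libraries. In bulk RNA, fewer cells of a kind and less RNA per cell cannot be told apart.

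The subset effect is the log2 fold change of CD11c+ over CD11c- within a condition, and the interaction is the neonatal effect minus the EAE effect. Calls required an adjusted p no higher than 0.01 (quasi-likelihood test of edgeR over all 12904 genes tested, Benjamini-Hochberg adjustment) and a log2 value of at least 1, and the error given with a log2 value is its standard error from the fit. In neonates 364 genes were higher in CD11c+ microglia (2.82% of the genes tested) and 78 were lower (0.604%). The balance was the other way in EAE, where 113 genes were higher (0.876%) and 237 lower (1.84%). Without library 6, 3 or 4 the EAE count of 113 fell to 49, 69 or 69, without library 6, 3 or 2 the EAE count of 237 fell to 111, 148 or 156, and without library 13 or 14 the neonatal count of 78 fell to 47 or 48. The interaction itself was called for 130 genes, of which 125 had the higher subset effect in neonates (0.969%) and 5 the lower (0.0387%). At an unadjusted p of 0.05 or less the split was 1215 against 1085 genes, and the median interaction over all genes was 0.0014. Of the 125 genes, 106 had an EAE effect below 0 and 61 were called lower in EAE CD11c+ microglia, while 60 were called higher in neonatal CD11c+ microglia. The count of 125 fell to 69 without library 6, 70 without library 14, 73 without library 13, 75 without library 3, 76 without library 2, 79 without library 20 and 83 without library 5, and the count of 5 fell to 1 to 3 without any of libraries 13, 14, 15, 16, 20, 2, 3, 4, 5 and 6.

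Sorted by these calls, 89 genes had an effect shared by both conditions with no called difference (47 higher and 42 lower in CD11c+ microglia), 6 rose in both conditions with a larger effect in neonates, 13 went in opposite directions, 43 were called in neonates only (41 higher, 2 lower) and 48 in EAE only (all lower in CD11c+ microglia). Here "only" refers to the calls, and an effect of opposite sign in the other condition may have missed its threshold. The EAE effect was at or below -1 for 7 of the 41 genes, and the neonatal effect was above 0 for 32 of the 48. No gene had a same-direction effect called larger in EAE, and none was called higher in EAE CD11c+ microglia alone with a called difference. The first of these counts was 8 with the likelihood ratio test of edgeR, 7 without a filter on low counts or at an adjusted p of 0.05, 6 with the Wald test of DESeq2 and 4 without library 19, and the second was 2 with the Wald test, limma voom or an adjusted p of 0.05. The count of 6 genes with the larger effect in neonates fell to 3 without any 1 of libraries 13, 14, 20, 1, 2, 3, 4, 5 and 6. A further 20 genes had a called difference with neither subset effect called. Another 291 genes were called in neonates and 194 in EAE without a called difference, and these cannot be assigned to either condition. As a background to statements on single genes, the libraries of both subsets did not overlap for 12.3% (CD11c+ above) and 9.92% (CD11c+ below) of all genes in neonates, and for 11.9% and 13.1% in EAE. Of the 364 genes higher in neonatal CD11c+ microglia, 16.8% rose with an adjusted p of 0.01 or less in EAE and 3.57% fell. The shares of all genes tested were 1.29% and 2.28%. Of the 113 genes higher in EAE CD11c+ microglia, 52.2% rose in neonates and 0 fell, against 4.62% and 1.53% of all genes.

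**Figure D1:**
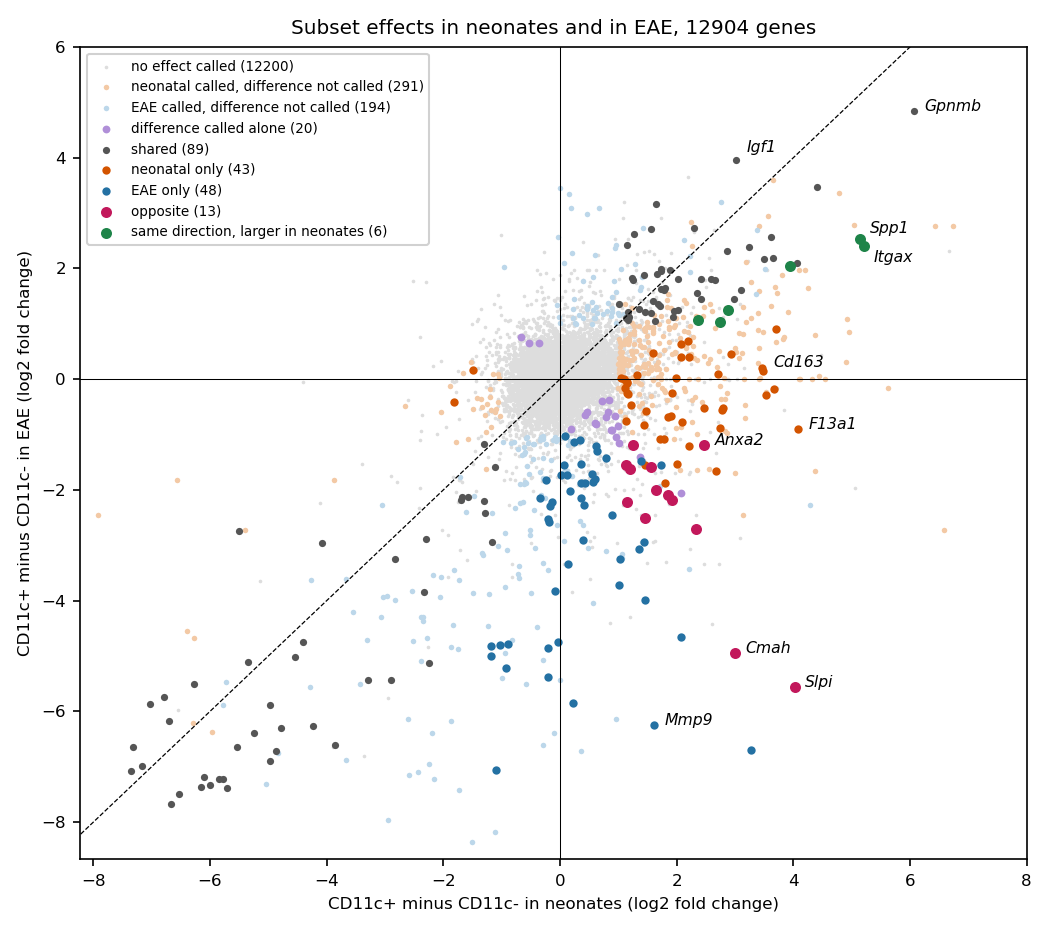
Subset effect (CD11c+ minus CD11c-, log2 fold change) in neonates on the horizontal axis and in EAE on the vertical axis for all 12904 genes tested, coloured by class with the number of genes in each, and a dashed line where both effects are equal. The 13 opposite genes lie to the lower right with neonatal effects above 0 and EAE effects below 0, Slpi and Cmah farthest out, and the 6 genes with the larger neonatal effect lie below the dashed line at the upper right.

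The 6 genes that rose in CD11c+ microglia in both conditions, and more so in neonates, included the sort marker itself. Itgax (chr7:128129547-128150657, GRCm38) was measured at 314, 391, 428 and 279 CPM in the neonatal CD11c+ libraries and at 9.34, 8.35, 11.7 and 8.52 CPM in the neonatal CD11c- libraries. Its level in EAE was 450.2, 320.3 and 385 CPM in CD11c+ and 81.2, 77.99 and 57.2 CPM in CD11c- libraries. The CD11c+ subsets of both conditions overlapped in Itgax, whereas every EAE CD11c- library stood above every neonatal CD11c- library, so that the subset effect was 5.20 ± 0.20 in neonates and 2.41 ± 0.20 in EAE. The interaction was 2.79 ± 0.26 (95% confidence interval 2.23 to 3.35, adjusted p = 3.86e-05, edgeR). Since surface CD11c defined the sort, this is a check of the gate in each condition.

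Spp1, a secreted matrix protein that binds integrins, reached 5149.9, 5866, 5501 and 3191 CPM in neonatal CD11c+ and 152, 98.4, 147 and 161 CPM in neonatal CD11c- libraries. In EAE it was 454, 521 and 373 CPM in CD11c+ and 95.9, 75.8 and 61.5 CPM in CD11c- libraries. Here the CD11c+ subsets differed: each neonatal CD11c+ library stood above each EAE CD11c+ library, and the CD11c- subsets lay closer together. The effects were 5.14 ± 0.24 in neonates and 2.53 ± 0.25 in EAE, with an interaction of 2.61 ± 0.31 (adjusted p = 2.92e-04, edgeR). Fam20c, a kinase that phosphorylates secreted proteins including osteopontin, followed the same pattern at 72.3 to 104 CPM in neonatal CD11c+, 4.38 to 7.65 in neonatal CD11c-, 34.3 to 42.02 in EAE CD11c+ and 7.71 to 10.3 CPM in EAE CD11c- libraries. Its effects were 3.95 ± 0.18 and 2.05 ± 0.19. Lgals1, which encodes the lectin galectin-1, was 64.3 to 100.4 CPM in neonatal CD11c+ against 16.3 to 26.2 CPM in EAE CD11c+ libraries, and its effects were 2.88 ± 0.20 and 1.25 ± 0.23. Pla2g7, which encodes a secreted phospholipase that hydrolyses platelet-activating factor, was like Itgax in that the EAE CD11c- libraries stood above the neonatal ones, at 25.1 to 33.3 against 3.34 to 5.91 CPM. Its interaction was 1.71 ± 0.31, which did not pass when the difference was tested against a log2 value of 1 (glmTreat of edgeR, adjusted p = 0.373). With 1 library left out at a time, the call was lost in 11 of 14 runs for Pla2g7 and in 9 for Lgals1, and in none for Itgax, Spp1 and Fam20c.

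The promoter bases of Itgax and Spp1 are shown because these genes lead the group by the size of the interaction. They are the 250 bases before the transcription start in RefSeq (GRCm38.p6, plus strand), with capitals marking an AP-1 site (TGAGTCA) in Itgax (chr7:128129300-128129549) and, in Spp1 (chr5:104434861-104435110), the core of an interferon-stimulated response element and then the core bound by PU.1 (GAGGAAG).
Itgax: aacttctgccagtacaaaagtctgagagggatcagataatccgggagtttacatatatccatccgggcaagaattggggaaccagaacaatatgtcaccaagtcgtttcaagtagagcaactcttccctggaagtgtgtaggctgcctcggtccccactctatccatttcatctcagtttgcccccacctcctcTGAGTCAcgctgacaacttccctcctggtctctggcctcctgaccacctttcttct
Spp1: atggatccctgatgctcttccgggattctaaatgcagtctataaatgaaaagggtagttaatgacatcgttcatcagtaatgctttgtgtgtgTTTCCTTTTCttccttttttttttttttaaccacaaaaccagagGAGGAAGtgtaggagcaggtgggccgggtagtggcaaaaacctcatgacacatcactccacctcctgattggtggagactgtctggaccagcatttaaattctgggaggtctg

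The 13 opposite genes were all higher in CD11c+ microglia of neonates and lower in CD11c+ microglia of EAE. Slpi (chr2:164354070-164389095, GRCm38), an inhibitor of serine proteases such as neutrophil elastase, was at 7.43, 6.33, 9.32 and 5.41 CPM in neonatal CD11c+ and 0, 0.155, 0.696 and 0.741 CPM in neonatal CD11c- libraries. In EAE it was at 0, 0.627 and 0.418 CPM in CD11c+ and at 12.2, 15.3 and 28.5 CPM in CD11c- libraries. The subsets did not overlap in either condition and stood in reverse order, with effects of 4.03 ± 0.52 in neonates and -5.56 ± 0.57 in EAE and an interaction of 9.58 ± 0.78 (95% confidence interval 7.93 to 11.23, adjusted p = 1.64e-05, edgeR). Cmah, the hydroxylase that makes the sialic acid Neu5Gc, was at 24.8, 19.3, 8.19 and 9.40 CPM in neonatal CD11c+ and 3.24, 1.24, 1.62 and 1.85 CPM in neonatal CD11c- libraries. Its EAE levels were 0.35, 0.376 and 0.139 CPM in CD11c+ and 5.21, 9.59 and 13.4 CPM in CD11c- libraries. Again no library crossed between subsets, and the effects were 3.00 ± 0.43 and -4.95 ± 0.67.

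Anxa2, a calcium-dependent membrane binding protein, was at 75.9, 72.05, 71.1 and 66.3 CPM in neonatal CD11c+ libraries against 11.6, 12.2, 16.00 and 11.1 CPM in neonatal CD11c- libraries. It was 20.5, 37.4 and 39.4 CPM in EAE CD11c+ and 54.1, 72.4 and 95.6 CPM in EAE CD11c- libraries. The neonatal CD11c+ and EAE CD11c- libraries overlapped in Anxa2, and both subsets of each condition were apart, with effects of 2.47 ± 0.21 and -1.18 ± 0.23 (interaction adjusted p = 1.64e-05, edgeR). The metalloproteinase genes Adam19 and Adam8 were both in the group. Adam19 was 6.55 to 15.5 CPM in neonatal CD11c+, 2.41 to 3.43 in neonatal CD11c-, 1.75 to 3.62 in EAE CD11c+ and 9.01 to 16.2 CPM in EAE CD11c- libraries, with effects of 1.85 ± 0.31 and -2.09 ± 0.35. Adam8, known from myeloid cells, had effects of 1.15 ± 0.26 and -2.22 ± 0.26. Cd300lb, an activating receptor of myeloid cells, had effects of 2.34 ± 0.45 and -2.70 ± 0.43. The guanine nucleotide exchange factor gene Vav3 had effects of 1.92 ± 0.31 and -2.18 ± 0.39, and the adhesion receptor Adgre5 (CD97) of 1.65 ± 0.34 and -2.00 ± 0.40. The remaining members were the gamma-secretase subunit gene Aph1b, the scaffold gene Iqgap2, the cytohesin regulator gene Cytip, Tmem154 and the predicted gene Gm45837, with neonatal effects from 1.13 to 1.57 and EAE effects from -2.51 to -1.18. Over all 13 the median effect was 1.65 in neonates and -2.09 in EAE. The mean level was highest in EAE CD11c- microglia for 9 of them and in neonatal CD11c+ microglia for 4. The adult libraries all lay below the neonatal CD11c+ libraries for 10 genes and below the EAE CD11c- libraries for 12. As the genes were sorted by being high in those subsets, such adult counts are partly built in. The count of 13 fell to 7 without library 6 or library 18 and to 8 without library 13, 14 or 2, and was 11 without libraries 17 and 1 together.

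The promoters of Slpi, the opposite gene with the largest difference, and Anxa2, 1 of the 4 with an AP-1 site, are printed for their motifs. They are again the 250 bases before the RefSeq start (GRCm38.p6), for Anxa2 on the plus strand (chr9:69453433-69453682, AP-1 site TGAGTCA in capitals) and for Slpi on the minus strand (chr2:164356508-164356757, E-box CACGTG in capitals).
Anxa2: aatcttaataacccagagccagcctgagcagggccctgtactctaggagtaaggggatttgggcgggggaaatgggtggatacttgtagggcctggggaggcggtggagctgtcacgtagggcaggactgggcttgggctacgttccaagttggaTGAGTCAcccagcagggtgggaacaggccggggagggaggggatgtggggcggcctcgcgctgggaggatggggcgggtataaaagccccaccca
Slpi: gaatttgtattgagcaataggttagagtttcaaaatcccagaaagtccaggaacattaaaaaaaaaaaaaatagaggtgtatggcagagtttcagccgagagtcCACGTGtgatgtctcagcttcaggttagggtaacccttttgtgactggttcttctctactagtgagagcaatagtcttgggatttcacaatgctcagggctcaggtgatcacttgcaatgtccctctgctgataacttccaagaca

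Windows counted for motifs ran from 250 bases before to 50 after the start, longer than the stretches printed. An AP-1 site (TGANTCA, N being any base, on either strand) was in 4 of the 11 windows of opposite genes that RefSeq supplied (36.4%). These were Anxa2, Adam19, Vav3 and Tmem154, and the share was 6.11% of 9853 tested genes with a window. The site was in 6 of 34 windows of genes shared in the higher direction (17.6%), in 3 of 35 of the genes higher in neonates only (8.57%) and in 3 of 34 of the genes lower in EAE only (8.82%). PU.1 cores, the letters bound by a factor that myeloid cells depend on, were in 3 of the 11 windows of opposite genes (27.3%) and in 16.4% of all windows. Other classes had similar shares: 10 of 33 for shared lower genes (30.3%), 9 of 35 for genes higher in neonates only (25.7%) and 7 of 34 for shared higher genes (20.6%). For genes lower in EAE only it was 5 of 34 (14.7%). These are counts of letters in a window, and binding was not measured.

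**Figure D2:**
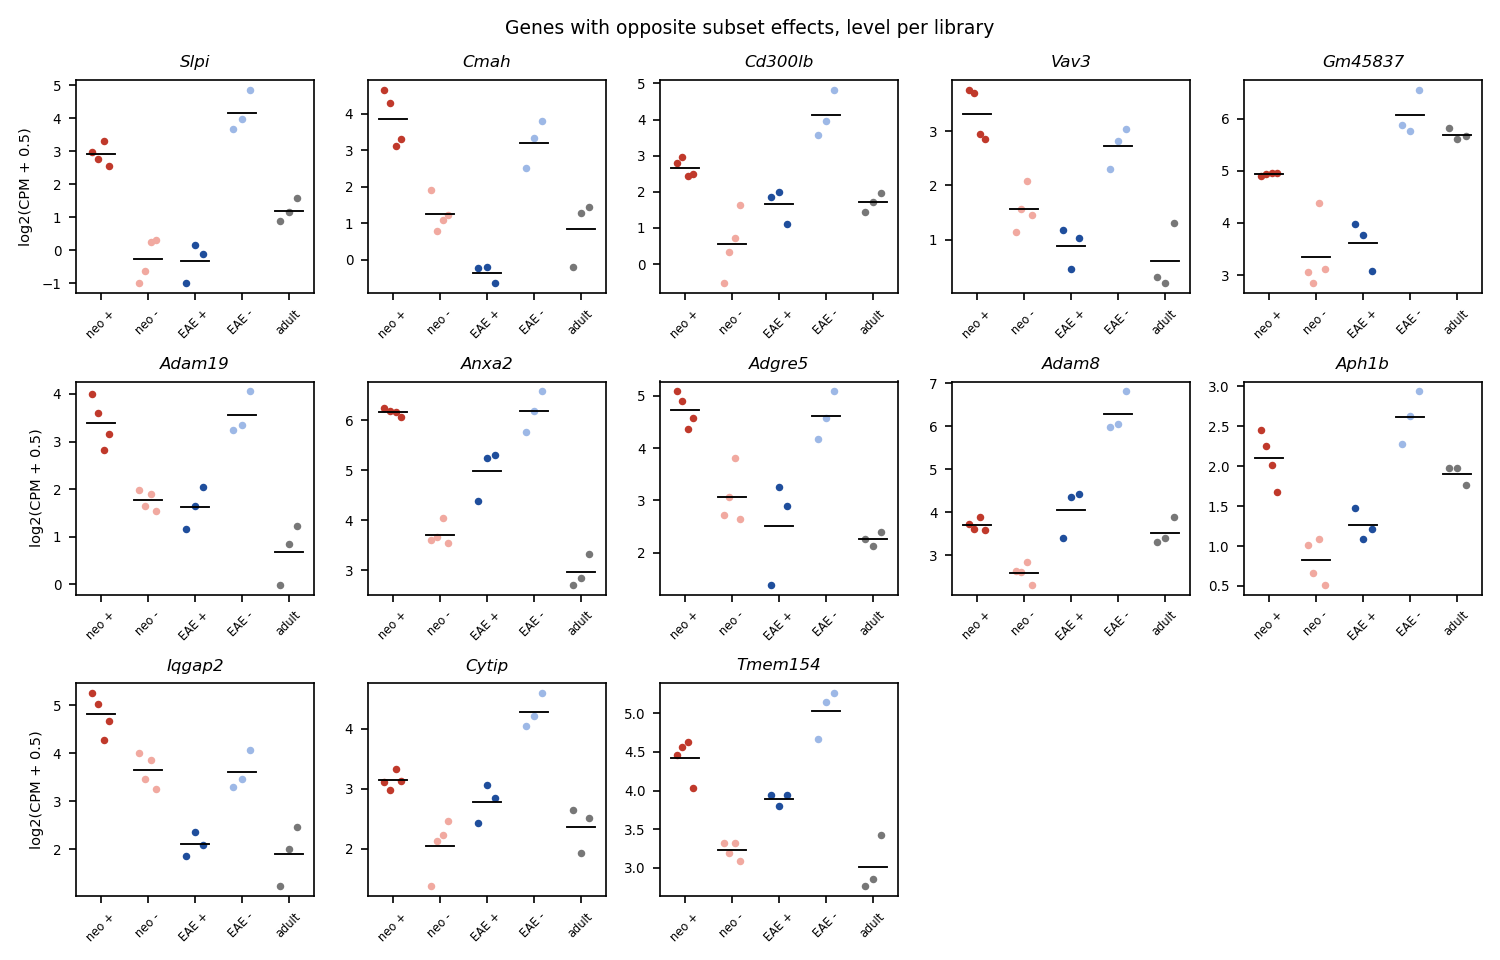
Level of each of the 13 opposite genes in every library, as log2(CPM + 0.5), for neonatal CD11c+ (neo +), neonatal CD11c- (neo -), EAE CD11c+ (EAE +), EAE CD11c- (EAE -) and adult microglia, with a line at the mean of each group. In each gene the neonatal CD11c+ points lie above the neonatal CD11c- points and the EAE CD11c+ points below the EAE CD11c- points.

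Neutrophil markers moved with the EAE side of this group. The neutrophil sum of EAE CD11c- libraries was 8343 CPM in library 4, 9507 in library 5 and 14967 in library 6, and 12 of the 13 opposite genes (92.3%) stood in that order in these 3 libraries, as did 35 of the 48 genes lower in EAE only (72.9%), 13 of 16 neutrophil markers (81.2%) and 17.5% of all genes tested. The order is set by the sum of the 16 markers, so their own share is partly built in. Mmp9, Padi4 and Cxcr2 belong both to these markers and to the 48 genes. Among the genes called in neonates only, the order held for 20 of 43 (46.5%). In neonates the neutrophil sum ran the other way from the opposite genes, at 446.6 to 477.0 CPM across CD11c+ libraries and 680.8 to 2291 CPM across CD11c- ones. The part of neutrophil RNA in the EAE effects was not tested.

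**Figure D3:**
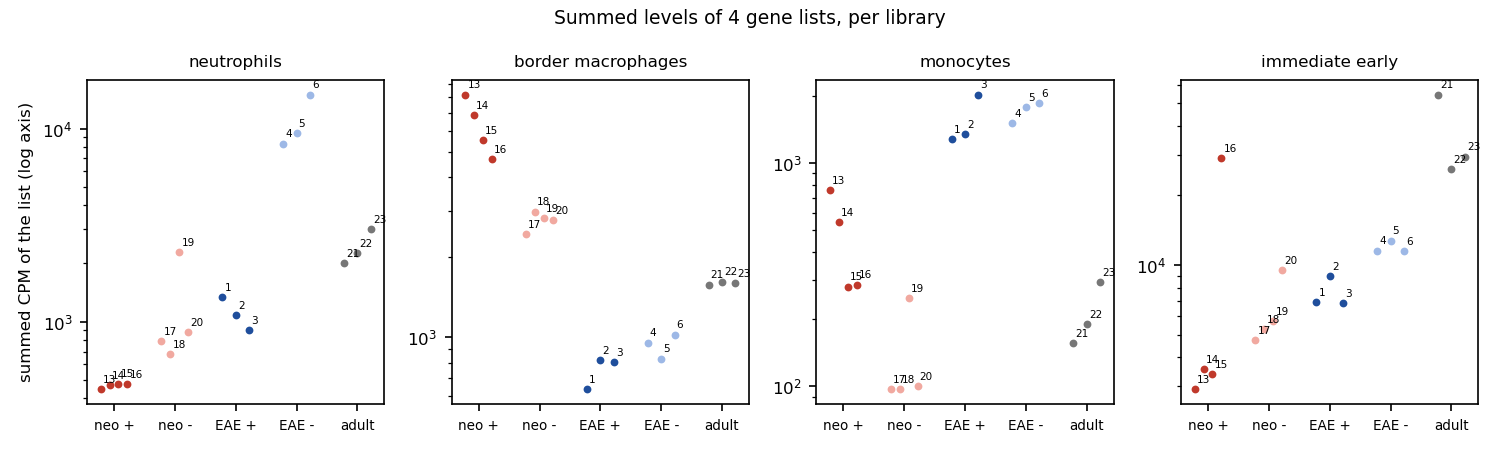
Summed CPM (log axis) of the neutrophil, border macrophage, monocyte and immediate early gene lists in every library, with the library number beside each point and groups as before (neo, neonatal). The neutrophil sum is highest in the 3 EAE CD11c- libraries, the border macrophage sum in the 4 neonatal CD11c+ libraries, and library 16 stands apart from its group in the immediate early sum.

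The 41 genes higher in CD11c+ microglia of neonates only included several that are known from macrophages at the borders of the brain. F13a1, a transglutaminase subunit of such cells and of monocytes, was 624, 408, 169 and 178 CPM in neonatal CD11c+ and 24.4, 15.6, 24.5 and 16.9 CPM in neonatal CD11c- libraries. It was 11.03, 12.5 and 11.4 CPM in EAE CD11c+ and 18.6, 27.1 and 19.4 CPM in EAE CD11c- libraries. Its neonatal subsets were far apart while in EAE the CD11c+ libraries were the lower ones, with effects of 4.08 ± 0.37 and -0.90 ± 0.42 and an interaction of 4.98 ± 0.56 (adjusted p = 1.64e-04, edgeR). The haemoglobin scavenger receptor gene Cd163 was 254, 183, 93.6 and 87.9 CPM in neonatal CD11c+, 9.64 to 23.1 CPM in neonatal CD11c- and 5.85 to 9.10 CPM in EAE CD11c+ libraries, with effects of 3.48 ± 0.35 and 0.15 ± 0.45. The folate receptor gene Folr2 had effects of 2.92 ± 0.21 and 0.45 ± 0.33, and the scavenger receptor gene Stab1 of 1.21 ± 0.19 and -0.47 ± 0.21. Of 12 border macrophage markers tested, 11 rose in neonatal CD11c+ microglia at an adjusted p of 0.01 or less, against 4.62% of all genes, none did in EAE (1.29% of all genes) and 4 had a passing interaction (1.01%). Their summed level was 4676 to 8188 CPM in neonatal CD11c+, 2438 to 2972 in neonatal CD11c-, 637.5 to 822.3 in EAE CD11c+ and 830.9 to 1024 CPM in EAE CD11c- libraries, with no marker at 0 in any group. That sum fell from library 13 through 14 and 15 to 16, an order that 11 of the 41 genes followed (26.8%), as did 5 of the 12 markers and 8.36% of all genes tested. The order is set by the markers themselves, and F13a1, Cd163, Folr2 and Stab1 belong to both sets. Among markers of cells that CD11b+ CD45dim sorting is meant to leave out, some of those of neural cells rose in neonatal CD11c+ microglia. Others did not: the endothelial and mural sum was 44.0 to 52.9 CPM in neonatal CD11c+ and 62.8 to 81.7 CPM in neonatal CD11c- libraries. B cell sums overlapped, at 462.6 to 510.4 and 462.2 to 644.6 CPM. Of 7 astrocyte markers tested 4 rose in neonatal CD11c+ microglia, of 6 neuron markers 2 and of 8 oligodendrocyte lineage markers 2, against 4.62% of all genes, with median effects of 2.31, 1.75 and 1.46 against -0.082, 0.17 and 0.16 in EAE and no passing interaction. A group was at the floor of 3 counts for 3 of the 6 neuron markers. With such genes set to the floor, the neuron median was 0.68 in EAE and its interaction median 0.75, against 1.48 as fitted. The oligodendrocyte lineage median in EAE was then 0.038. The astrocyte sum was 35.7 to 62.8 CPM in neonatal CD11c+ and 30.02 to 43.4 CPM in neonatal CD11c- libraries, against 151.2 to 221.8 CPM in EAE. Summed neuron markers were at 12.6 to 37.5 against 4.82 to 11.3 CPM, and 1.34 to 2.92 CPM in EAE. The oligodendrocyte lineage sum was 113.4 to 188.1 against 69.4 to 114.9 CPM, and 116.1 to 191.4 CPM in EAE. None of these neural markers was at 0 in a neonatal group, and all 3 neural sums, like the border macrophage sum, were highest in library 13 and lowest in library 16 of the neonatal CD11c+ group. The monocyte sum was 755.0, 545.3, 279.7 and 285.4 CPM in libraries 13 to 16 against 97.2 to 247.6 CPM in neonatal CD11c- libraries, with F13a1 a member of both lists. The part of border macrophages, monocytes and neural cells in the neonatal effects was not tested.

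Other genes of the neonatal group have different known roles. Csf1, the growth factor that microglia need, was 621, 717, 697 and 531 CPM in neonatal CD11c+ and 167, 141, 153 and 146 CPM in neonatal CD11c- libraries. In EAE it was 275, 230.3 and 205 CPM in CD11c+ and 152, 177 and 130.2 CPM in CD11c- libraries. The EAE subsets did not overlap either, but the effect of 0.63 ± 0.15 there (adjusted p = 0.0181, edgeR) missed the threshold, against 2.08 ± 0.14 in neonates. Lgals3 (galectin-3) was 28.7 to 37.1 CPM in neonatal CD11c+ and 0.953 to 4.41 CPM in neonatal CD11c- libraries and 33.97 to 55.2 and 33.9 to 48.7 CPM in the EAE subsets. Both EAE subsets overlapped or exceeded the neonatal CD11c+ range, and the effects were 3.46 ± 0.28 and 0.21 ± 0.25. The semaphorin receptor gene Plxnc1 had effects of 1.78 ± 0.24 and -1.07 ± 0.30, and the chemokine gene Ccl9 of 1.32 ± 0.13 and 0.08 ± 0.15. Cfp, which encodes properdin, a stabilizer of complement activation, had effects of 2.74 ± 0.35 and -0.88 ± 0.36. The scaffold gene Ahnak had effects of 3.53 ± 0.44 and -0.29 ± 0.45, the extracellular glycoprotein gene Emilin2 of 2.78 ± 0.31 and -0.55 ± 0.30, and the ectoenzyme gene Bst1 of 2.79 ± 0.49 and -0.53 ± 0.37. Plekhg3 had effects of 1.80 ± 0.42 and -1.87 ± 0.49, the EAE effect being at least as large in size but not called. The predicted gene Gm6377 had effects of 3.67 ± 0.37 and -0.17 ± 0.53.

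Over the 41 genes the median effect was 1.99 in neonates and -0.27 in EAE. The EAE effect was within 0.5 of 0 for 20 of them and at or below -1 for 7. The 2 genes lower in neonates only were the inhibitory lectin gene Siglecg, at 3.93 to 5.73 CPM with and 10.9 to 15.6 CPM without CD11c, and the organic anion transporter gene Slco4a1, at 5.84 to 8.95 and 23.05 to 28.8 CPM. Their EAE effects were 0.16 ± 0.19 and -0.42 ± 0.17. Leaving out 1 library at a time cost the call in 10 of 14 runs for Bst1, 9 for Plekhg3 and Slco4a1, 7 for Cd163, 5 for Gm6377, Stab1 and Siglecg, 4 for Folr2, 3 for Ahnak and 1 for Ccl9. Without library 14, 13 or 20 the count of 41 fell to 22, 23 or 26, and the count of 2 fell to 0 without library 13, 14, 3, 4 or 6 and to 1 without library 16, 20, 2 or 5.

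**Figure D4:**
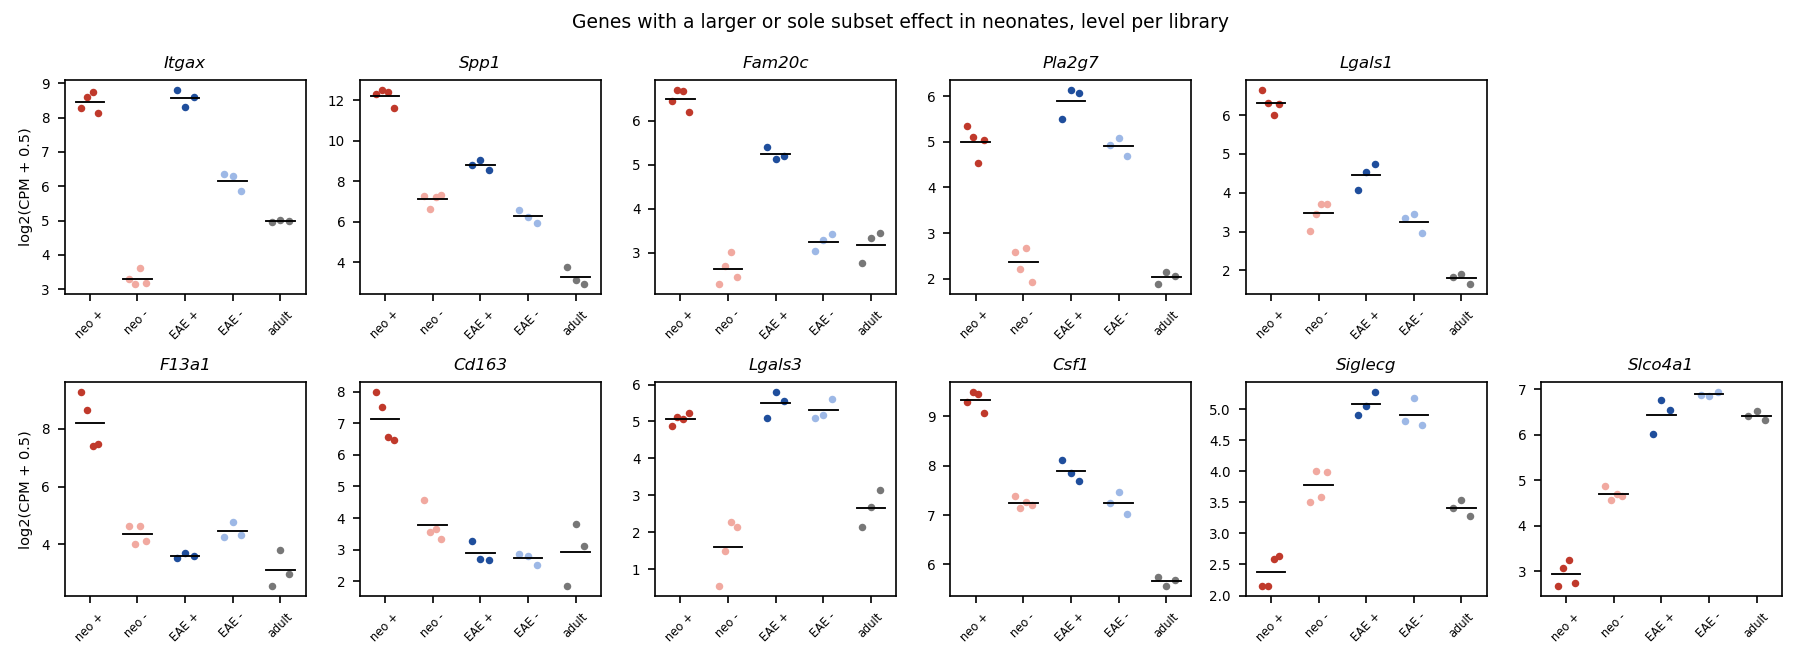
Level per library, as log2(CPM + 0.5), of 5 genes that rose in both conditions with the larger effect in neonates (upper row) and of 6 genes called in neonates only (lower row), with groups as before and a line at the group mean. Itgax and Spp1 reach a large neonatal effect through a low CD11c- level and a high CD11c+ level respectively, and the EAE subsets of Cd163 and Lgals3 overlap.

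The 48 genes called in EAE only were all lower in CD11c+ microglia, and several of those named here are known from neutrophils. Mmp9, gelatinase B of neutrophil granules, was 1.05, 8.65 and 3.48 CPM in EAE CD11c+ and 215, 322 and 522 CPM in EAE CD11c- libraries. In neonates it was 15.4, 10.2, 9.58 and 6.37 CPM in CD11c+ and 3.43, 1.86, 4.99 and 3.15 CPM in CD11c- libraries. The neonatal subsets did not overlap and stood in the other order, but the neonatal effect of 1.61 ± 0.47 (adjusted p = 0.0336, edgeR) was not called, against -6.25 ± 0.52 in EAE. The formyl peptide receptor gene Fpr1 had an EAE effect of -4.66 ± 0.57, Padi4, which citrullinates histones in neutrophils, of -7.06 ± 0.61, and the chemokine receptor gene Cxcr2 of -5.00 ± 0.46. Their neonatal effects were 2.07 ± 0.74, -1.09 ± 0.58 and -1.18 ± 0.33, none of them called. Lbp, which presents lipopolysaccharide to its receptor, had effects of 1.02 ± 0.44 in neonates and -3.71 ± 0.63 in EAE. Crispld2, Slc25a24, Syne1 and the antisense gene F630028O10Rik had EAE effects between -5.85 and -3.07, and the last of these may share reads with the gene opposite to it. The glucose transporter gene Slc2a3 had effects of -0.20 ± 0.25 and -2.59 ± 0.28, and the matrix proteoglycan gene Vcan, known from monocytes, of 1.40 ± 0.33 and -1.47 ± 0.29.

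Over the 48 genes the median effect was 0.29 in neonates and -2.37 in EAE, and 32 had a neonatal effect above 0. The mean was highest in EAE CD11c- microglia for 42 of them. The neutrophil sums given above, of which Mmp9, Padi4 and Cxcr2 are part, moved with these genes too. The call of Padi4 was lost without library 13 or 14, that of Lbp without library 3 or 6 and that of F630028O10Rik without library 3. Without library 6, 3 or 2 the count fell to 23, 24 or 27, and without library 14, 13 or 5 to 30, 31 or 31.

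The 47 genes higher in CD11c+ microglia of both conditions without a called difference had median effects of 1.78 in neonates and 1.80 in EAE. Gpnmb, a glycoprotein of lipid-laden phagocytes, was 385, 404, 427 and 274 CPM in neonatal CD11c+ and 8.19, 3.71, 4.06 and 6.86 CPM in neonatal CD11c- libraries. It was 75.99, 37.5 and 34.1 CPM in EAE CD11c+ and 2.50, 1.44 and 1.04 CPM in EAE CD11c- libraries. The level was higher in neonates in both subsets, and the effects were 6.06 ± 0.33 and 4.85 ± 0.40. Its interaction of 1.21 was not called (95% confidence interval 0.07 to 2.35), but was 2.02 with an adjusted p of 0.00322 (edgeR) without libraries 16, 17 and 1.

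Igf1, a growth factor for oligodendrocyte lineage cells and neurons, was 499.8, 556, 469 and 389 CPM in neonatal CD11c+ and 77.6, 47.03, 63.1 and 48.9 CPM in neonatal CD11c- libraries. In EAE it was 22.6, 9.40 and 5.43 CPM in CD11c+ and 1.19, 0.576 and 0.521 CPM in CD11c- libraries. No library of the EAE CD11c+ group reached the lowest neonatal CD11c- library, yet the effect in EAE was 3.96 ± 0.52 against 3.02 ± 0.30 in neonates. The interaction was -0.94 with a 95% confidence interval of -2.28 to 0.39, so a difference of either sign was within it. The scavenger collectin gene Colec12 had effects of 4.41 ± 0.29 and 3.46 ± 0.42, the beta-glucan receptor gene Clec7a (dectin-1) of 3.24 ± 0.22 and 2.39 ± 0.24, the heparanase gene Hpse of 3.50 ± 0.18 and 2.17 ± 0.21, and the fatty acid binding protein gene Fabp5 of 3.65 ± 0.24 and 2.18 ± 0.30. Of the apolipoprotein genes in the group, Apoc2 had effects of 2.59 ± 0.34 and 1.81 ± 0.25 and Apoe of 1.24 ± 0.24 and 1.79 ± 0.28. The effects of Etl4, another gene of the group, were 2.02 ± 0.33 and 1.82 ± 0.37. For Lpl, lipoprotein lipase, the effects were 1.23 ± 0.14 and 1.83 ± 0.17. The interval of the difference lay within 1 log2 unit of 0 for 10 of the 47 genes and excluded 0, unadjusted, for 20, so most of the group is not shown to be alike in size. Among those not called, Hpse had an interaction of 1.33 ± 0.27 (adjusted p = 0.0126, edgeR). In the other direction, also without a call, the protease inhibitor gene Cst7 had an interaction of -1.28 ± 0.29 (adjusted p = 0.0247, edgeR) and the nuclease gene Dnase1l3 of -1.51 ± 0.30 (adjusted p = 0.0117, edgeR). Without library 6 the count of 47 fell to 26.

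The 42 genes lower in CD11c+ microglia of both conditions were led by neutrophil granule genes. S100a9, a subunit of calprotectin, was 2.55, 2.51, 3.28 and 3.03 CPM in neonatal CD11c+ and 64.2, 99.9, 511 and 128 CPM in neonatal CD11c- libraries, the highest of the latter being library 19. In EAE it was 7.88, 25.9 and 16.98 CPM in CD11c+ and 2053, 2434 and 4009.8 CPM in CD11c- libraries. Both CD11c+ subsets lay below both CD11c- subsets, with effects of -6.15 ± 0.66 and -7.37 ± 0.75, and S100a9 is itself 1 of the 16 neutrophil markers. The granule genes Camp, Ltf, Cd177, Elane, Prtn3, Fcnb and Wfdc21 were also in the group. The median effect was -4.92 in neonates and -5.80 in EAE, or -4.52 and -5.65 with the 14 genes that had 3 counts or fewer over a whole group set to that floor. Only 1 of the 42 intervals of the difference lay within 1 log2 unit of 0. Without library 14 or 13 the count of 42 fell to 25 or 26.

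Of the 20 genes with a called difference alone, the 3 with the lower value in neonates had small effects of opposite sign. Nes, which encodes the intermediate filament nestin of neural progenitors, was 113, 130.5, 142 and 163 CPM in neonatal CD11c+ and 266, 247, 158 and 203 CPM in neonatal CD11c- libraries. It was 24.2, 28.7 and 30.3 CPM in EAE CD11c+ and 13.1, 18.2 and 17.98 CPM in EAE CD11c- libraries. Library 19 of the neonatal CD11c- group fell within the CD11c+ range, while the EAE subsets were apart, and the effects were -0.67 ± 0.16 and 0.76 ± 0.21. Gpr84, a receptor for medium-chain fatty acids, had effects of -0.52 ± 0.11 and 0.65 ± 0.13, and the Src family kinase gene Fyn of -0.35 ± 0.12 and 0.66 ± 0.15. Of the 17 genes with the higher value in neonates, the heparan sulphate enzyme gene Ndst1 had effects of 0.95 ± 0.11 and -0.67 ± 0.13, the aldehyde dehydrogenase gene Aldh2 of 0.90 ± 0.19 and -0.92 ± 0.22, the ephrin gene Efnb2 of 0.87 ± 0.19 and -0.92 ± 0.27, and Rab34 of 1.00 ± 0.21 and -0.85 ± 0.26. Of the 14 runs without 1 library, 12 lost the call of Fyn, 11 those of Efnb2 and Rab34, 10 that of Nes, 1 that of Aldh2 (library 6) and none those of Gpr84 and Ndst1.

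Gene lists of known function gave a further view, in which members are counted as having risen or fallen at an adjusted p of 0.01 or less of any size. Of 20 genes that the study names for CD11c+ microglia, 16 rose in neonates and 14 in EAE, against 4.62% and 1.29% of all genes, with 3 interactions passing. The study chose these genes on the same libraries, so they are not independent evidence of a direction. Of 16 factors that it names for neonatal CD11c+ microglia, also chosen on these libraries, 11 rose in neonates, 5 rose and 1 fell in EAE, and 4 had a higher neonatal effect (Spp1, Lgals1, Csf1 and Adam19). Lipid handling genes rose in both conditions, 16 of 26 in neonates and 8 in EAE, with the single interaction that of Pla2g7. Lysosomal genes rose in 15 of 35 cases in neonates and 4 in EAE, with a median interaction of 0.18 and none passing. Glycolysis genes rose in 10 of 22 cases in neonates, while in EAE 1 rose and 1 fell, and Slc2a3 was the single passing interaction.

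Matrix and protease genes held 6 passing interactions among 29 tested, all with the higher effect in neonates (Spp1, Fam20c, Adam8, Adam19, Mmp9 and Vcan), against 1.01% of all genes. Spp1 and Fam20c rose in both conditions, more so in neonates. Adam8 and Adam19 were opposite genes and Mmp9 and Vcan were called in EAE only, all being lower in EAE CD11c+ microglia. Mmp9 is also a neutrophil marker. In neonates 10 of the 29 rose and 1 fell, and in EAE 6 rose and 5 fell. Homeostatic microglia genes fell for 7 of 24 members in neonates and 2 in EAE (1.53% and 2.28% of all genes), their median effects were -0.39 and -0.37, and none had a passing interaction. P2ry12, a purinergic receptor of resting microglia, had effects of -1.36 ± 0.28 and -0.35 ± 0.32, with library 17 highest among the neonatal CD11c- libraries at 8655, 3131, 3667 and 3980.0 CPM. MHC class II genes, which present peptides to helper T cells, rose for 5 of 10 members in EAE and 1 in neonates (1.29% and 4.62% of all genes). Cd74, the invariant chain, was 3794, 2547 and 2769 CPM in EAE CD11c+ and 1144, 1169.9 and 934 CPM in EAE CD11c- libraries. In neonates it was 59.6, 55.1, 51.9 and 99.7 CPM in CD11c+ and 40.01, 39.9, 30.7 and 33.4 CPM in CD11c- libraries. Levels differed far more between conditions than between subsets, and the effects were 0.89 ± 0.20 in neonates and 1.49 ± 0.22 in EAE, with no called difference (95% confidence interval -1.23 to 0.03). The interferon-induced chemokine gene Cxcl9 had an effect of 3.35 ± 0.30 in EAE, at 176 to 411 CPM with and 20.8 to 38.6 CPM without CD11c, and lay at 0 to 0.478 and 0.116 to 0.381 CPM in the neonatal subsets, levels at which these could not be told apart (interaction 95% confidence interval -5.69 to -0.71).

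Cell cycle and immediate early genes had median effects of opposite sign in the conditions, with no member passing the interaction test. Of 39 cell cycle genes, 2 had an effect above 0 in neonates and 37 in EAE, with medians of -0.36 and 0.18. Without library 3 the number above 0 in EAE was 15 with a median of -0.05, and without library 4 it was 20 with a median of 0.01, so the EAE direction rested on those libraries. Of 20 immediate early genes, 19 had an effect above 0 in neonates and 2 in EAE, with a median interaction of 1.56. Without library 16 the number in neonates was 2 and the median interaction 0.06. Monocyte markers had a median interaction of -0.12, or 0.21 with genes at the floor set to it. T and NK cell markers were sparse, with 3 of 15 reaching the filter on low counts and a summed level of 9.51 to 103.8 CPM over the 14 libraries, and 9 of the 15 were at 0 in each neonatal subset.

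**Figure D5:**
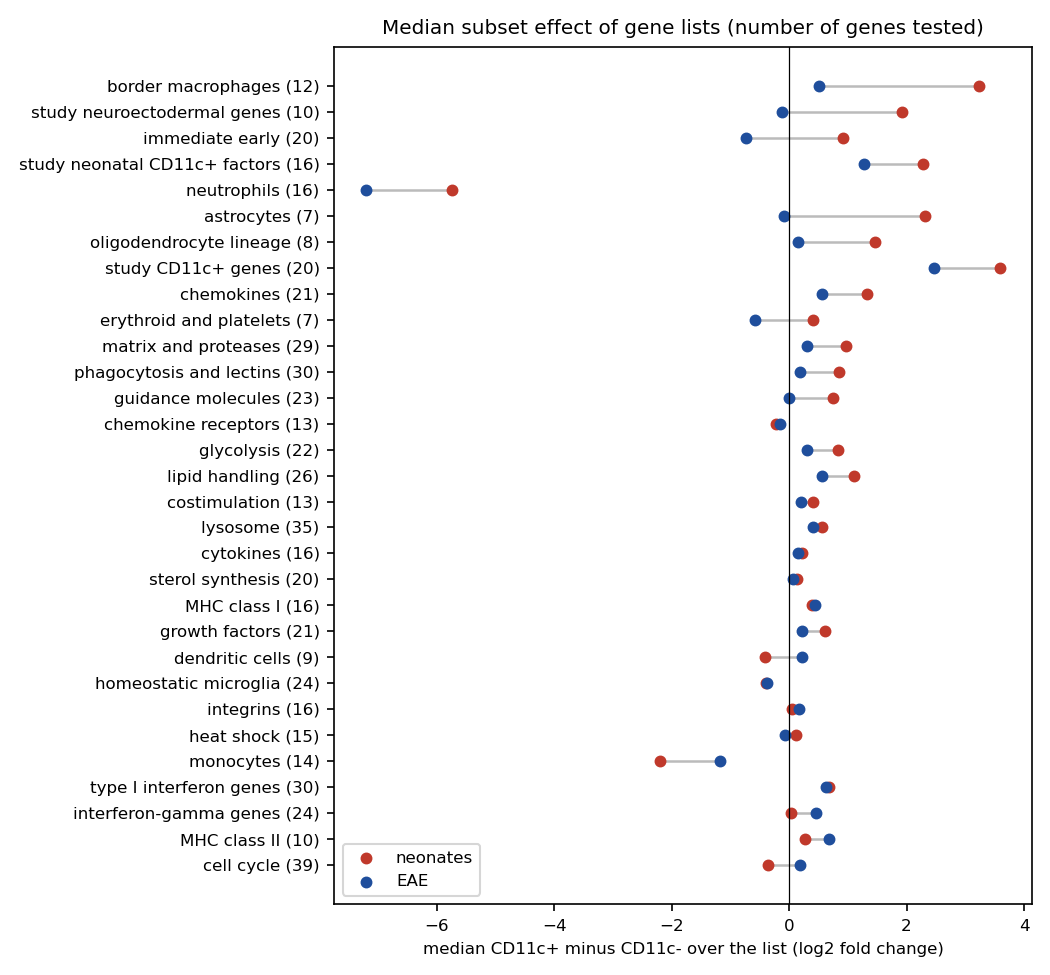
Median subset effect (log2 fold change, CD11c+ minus CD11c-, fitted values) in neonates and in EAE of each gene list with at least 7 tested members, ordered by the median interaction, with the number tested in parentheses. Border macrophage markers have medians of 3.23 in neonates and 0.51 in EAE, and the medians of homeostatic microglia genes nearly coincide.

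The adult libraries, which the calls of the main fit did not use, gave a reference for the sorted genes. Genes were sorted by a high or low level in the subsets, so many of these adult counts are partly built in. Their share over all genes was not computed. All adult libraries lay below all neonatal CD11c+ libraries for 38 of the 41 genes higher in neonates only, below the neonatal CD11c- libraries for 19 and below the EAE CD11c- libraries for 25. For the 48 genes lower in EAE only, the adult libraries lay below the EAE CD11c- libraries for 39 genes and above the EAE CD11c+ libraries for 30. For all 47 genes shared in the higher direction the adult libraries lay below the EAE CD11c+ libraries, and for 46 of them below the neonatal CD11c+ libraries. Both genes lower in neonates only were higher in every adult library than in every neonatal CD11c+ library, Siglecg at 9.18 to 11.1 CPM and Slco4a1 at 79.6 to 91.01 CPM. Anxa2 was 6.02 to 9.57 CPM in adult libraries, below every one of the other groups, and Itgax was 30.7 to 32.2 CPM, between the CD11c- subsets of neonates and of EAE.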

How the data were processed

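Raw counts of reads per Ensembl gene ID were deposited for 17 libraries; per the submitters' notes, the authors aligned single reads to GRCm38 with STAR 2.3.11 (as written there), counted them with HTSeq 0.5.4 without normalization and used edgeR 3.12.0 for their own tests. Groups came from the population labels. IDs were matched to symbols of GENCODE M21 (40254 of 41388; 17737 had no count in any library). The 14 subset libraries were fitted together as 4 groups with edgeR 4.0.16 (limma 3.58.1, R 4.3.3): genes at 1 CPM or more in at least 3 libraries (12904), TMM scaling, quasi-likelihood tests of both subset effects and of their difference, Benjamini-Hochberg adjustment over all genes, and calls at 0.01 with a log2 value of 1. Levels are CPM with TMM scaling over all 17 libraries. A floor of 3 counts over a group was used for bounds, which cover counting error only. The biological coefficient of variation was 0.181. The code was tested on simulated counts. Libraries are pools of mice, and p-values measure the spread between pools.

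Up to 8 genes per class and direction were named, ranked by the interaction (shared genes by the smaller effect), with a group mean of 10 CPM or more and subsets that did not overlap; every opposite gene; genes that the study names; and from each gene list at most 4 members lowest in the adjusted p of the interaction. S100a9, Cd74, Cxcl9, P2ry12, Apoe, Lpl, Cst7 and Dnase1l3 follow as list members or were named after their values were seen. The classes, members and all 35 gene lists (641 of 645 genes matched) were chosen with earlier results of these data known. Alternatives were the size factors and Wald test of DESeq2 1.42.0, limma voom weighted by library quality, edgeR's likelihood ratio test and glmTreat, changed filters and thresholds, all 17 libraries, library sizes without mitochondrial genes, and libraries left out singly or together. Promoter windows are from RefSeq (9853 of the tested genes). The microscopy, flow cytometry, quantitative PCR, gene deletion and cell ablation experiments of the study were not analysed here. Of the genes that the naming rule selects, 1 is not reported here.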

Additional observations from a re-analysis of the deposited data

Results flagged for a closer look

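The subset effect differed between neonates and EAE for 125 genes with the higher value in neonates and 5 with the lower, by the test of the interaction. Those described above are given here by the size of the interaction (log2, neonatal effect minus EAE effect, edgeR). Among the genes that rose in both conditions it was 2.79 for Itgax, 2.61 for Spp1, 1.90 for Fam20c, 1.71 for Pla2g7 and 1.63 for Lgals1. For the opposite genes the interactions were those of Slpi (9.58), Cmah (7.95), Cd300lb (5.04), Vav3 (4.10), Gm45837 (3.96), Adam19 (3.94), Anxa2 (3.66), Adgre5 (3.64), Adam8 (3.37), Aph1b (3.16), Iqgap2 (2.83), Cytip (2.68) and Tmem154 (2.43). Genes called in neonates only had interactions as follows, beginning with markers of border macrophages: F13a1 (4.98), Cd163 (3.33), Folr2 (2.47) and Stab1 (1.68), then Ahnak (3.82), Gm6377 (3.85), Plekhg3 (3.67), Cfp (3.62), Emilin2 (3.33), Bst1 (3.32), Lgals3 (3.25), Plxnc1 (2.85), Csf1 (1.45) and Ccl9 (1.24), and in the lower direction Siglecg (-1.65) and Slco4a1 (-1.40). Those named of the genes called in EAE only had interactions from 2.39 to 7.86, led by Mmp9 (7.86), Fpr1 (6.73), Crispld2 (6.07) and Padi4 (5.96) and followed by Lbp (4.73), F630028O10Rik (4.72), Syne1 (4.66), Slc25a24 (4.43), Cxcr2 (3.83), Vcan (2.87) and Slc2a3 (2.39). Where the difference alone was called the values were those of Rab34 (1.85), Aldh2 (1.81), Efnb2 (1.80) and Ndst1 (1.62) and, in the lower direction, Nes (-1.43), Gpr84 (-1.17) and Fyn (-1.01).

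In 128 groups of 4 neonatal libraries tested for 1 library far from the rest (the named genes, 3 summed lists and the mitochondrial share, in each subset), 10 had one, and chance gives about 1 in 20. Library 19 of the neonatal CD11c- group stood apart in 6 of them. Its neutrophil sum was 2291 CPM against 680.8 to 879.5 in the others, Syne1 was 15.2 CPM against 3.34 to 4.57, Lbp 9.85 against 1.86 to 3.05, Padi4 4.41 against 0.556 to 1.14, Crispld2 4.52 against 2.59 to 2.67 and Gm45837 20.3 against 6.65 to 8.15 CPM. Without library 19 the neonatal effect of the 16 neutrophil markers had a median of -4.55 against -5.74 with it. Library 17 held 5.10% mitochondrial counts against 1.06% to 1.13% in the other neonatal CD11c- libraries. In neonatal CD11c+ microglia, library 16 had an immediate early sum of 28973 CPM against 2909 to 3540 and a Syne1 level of 5.10 CPM against 6.26 to 6.44, and library 13 held 1.31% mitochondrial counts against 1.53% to 1.56%.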

How the results depend on the processing

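The direction of all 52 named genes with a called interaction held under each of the 27 alternatives, except that Fpr1 did not pass the filter of 1 CPM in at least 7 libraries and has no value there, and the call held in all of them for 29 genes and in each run without 1 library for 32. DESeq2 size factors and library sizes without mitochondrial genes changed no count by over 1.5 times, and the other settings below did so for the counts given; the cause was not tested. The 125 and 5 genes of the interaction became 256 and 21 with the Wald test of DESeq2, 272 and 23 with the likelihood ratio test of edgeR, 191 and 21 with limma voom, 251 and 21 without a filter on low counts, 249 and 24 at an adjusted p of 0.05, 65 and 0 when tested against a log2 value of 1 (glmTreat), and 206 and 20 without libraries 16, 17 and 1. The 5 became 13 with all 17 libraries in the fit and 12 without libraries 17 and 1. All glmTreat counts given here were taken at an adjusted p of 0.05, looser than the 0.01 of the main calls. They therefore do not show how many calls hold under glmTreat at 0.01. The 29 genes whose call held in all alternatives rest on the same looser cut for that test. The 13 opposite genes became 20 with the Wald test, 24 with the likelihood ratio test, 22 without a filter, 25 at 0.05 and 2 with glmTreat. Of the same 13 genes, 7 stayed opposite with limma voom, as did all 13 with the Wald test and the likelihood ratio test. Of the 89 shared genes, 75 stayed shared with limma voom. The 364 genes higher in neonatal CD11c+ microglia became 152 with glmTreat and 596 without a minimum log2 value, and the 78 lower ones 136 (likelihood ratio), 122 (no filter), 40 (glmTreat), 140 (0.05) and 198 (no minimum). In EAE the 113 higher genes became 173 with voom, 35 with glmTreat and 174 at 0.05. The 47 shared higher genes became 12 (glmTreat), 72 (0.05) and 77 (no minimum), and the 42 shared lower genes 69 (likelihood ratio), 65 (no filter) and 68 (0.05). The 41 genes higher in neonates only became 95 (Wald), 101 (likelihood ratio), 68 (voom), 94 (no filter), 62 (all 17 libraries), 15 (glmTreat), 93 (0.05) and 77 (without libraries 16, 17 and 1), the 2 lower ones 0 to 7, and the 48 lower in EAE only 86, 90, 83, 30 and 80 (Wald, likelihood ratio, no filter, glmTreat, 0.05). The 6 genes with the larger effect in neonates became 10 with the Wald or likelihood ratio test, 2 with glmTreat and 11 without libraries 16, 17 and 1. With 1 library left out at a time, the interaction gave 69 to 154 and 1 to 7 genes, the neonatal effect 262 to 404 and 47 to 88, the EAE effect 49 to 141 and 111 to 259, the shared effects 26 to 52 and 25 to 48, and the opposite group 7 to 14. The interaction of Etl4, not called, was 0.20 and ranged from -0.077 (without library 3) to 0.82 (without library 1) with 1 library left out, and was -0.021 without library 2. On simulated counts 96 of 100 genes with a 4-fold interaction and 24 of 100 with a 2-fold one were called. These genes had a mean of 10 CPM or more and no library was made to stand apart, so recovery at lower levels is not covered. No paired analysis was possible because the library numbers differ between all groups and nothing in the labels links the subsets of 1 sort.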
